A study of Mus musculus with 12 samples.

Results

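The genes described here make cholesterol, sense its level, move it within the cell or export it, and were followed in lactating mammary gland of mice with and without Btn1a1, the gene of butyrophilin, which sits in the apical membrane of alveolar cells and in the membrane around milk fat globules. The 34 members were taken by gene symbol from a table of 11834 genes, and all 34 were found there. PolyA RNA was sequenced from 12 glands of C57BL/6 mice in lactation 1, with 1 library per mouse. The 7 knockout (KO) mice were Btn1a1-/-, taken on day 10 except KO replicate 3 (day 8) and KO replicate 4 (day 11). The 5 wild-type (WT) mice were taken on day 10 except WT replicate 2 (day 9) and WT replicate 3 (day 11). Per the labels, mutant lines were kept by crossing heterozygous pairs, apart from the wild-type mice, and 2 diets were in use without a record of which mouse had which. Genotype, breeding line and diet therefore cannot be told apart.

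Cholesterol is built from acetyl-CoA by way of mevalonate, isoprenoid units, squalene and a chain of sterol intermediates. When membrane sterol is low, Scap carries the transcription factor Srebf2 out of the endoplasmic reticulum to be cleaved, and the freed factor turns on most enzymes of the pathway. When sterol is plentiful, Insig proteins hold Scap back and oxysterols activate the LXR receptors Nr1h2 and Nr1h3, which turn on export. In the lactating gland the pathway supplies membrane, including the membrane that wraps each milk fat globule.

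The targeted gene was checked first. Btn1a1 averaged 5.63 ± 0.30 log2 CPM in KO (SD, n = 7) and 11.07 ± 0.09 in WT (SD, n = 5), where CPM is the read count scaled to library size. Every KO value was under every WT value, though reads of the gene were not absent in KO. WT replicates 1, 2, 4 and 5 held the same value, 11.03, as equal ranks give after quantile normalization. The WT SD in part reflects that step. The 6 luminal secretory markers, milk protein genes among them, summed to between 257204 and 260116 CPM in KO and between 256915 and 258273 CPM in WT, and both groups thus carried the secretory genes of the labelled tissue. Csn2 and Wap, the casein and whey protein genes, held the same value in every library, as quantile normalization gives to genes of equal rank. They make up most of that sum, so its closeness between the groups was set by the normalization. Of the 6 markers 1 rose and 0 fell by limma. Krt8 had a log2 change of 0.42 (adjusted p = 0.0389), and Elf5 had -0.25 (adjusted p = 0.114) and did not pass. The table does not give total counts, and the values had been quantile-normalized by the authors, so sequencing depth per library is not known here. Each library is a separate mouse, and p-values set the difference between the groups against the spread between these mice. In whole gland, fewer cells of a type and less RNA per cell cannot be told apart.

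Promoters of 4 members are shown because their results differ below. Ggps1 was called lower in KO, Hsd17b7 and Insig1 had among the widest differences without passing the test, and Hmgcs1 is a textbook Srebf2 target that did not pass. Each window runs from 250 bases before to 50 bases after the start used in the RefSeq promoter table (GRCm38.p6), which for Ggps1 and Hsd17b7 lies inside the outermost end of the gene, and is written 5′ to 3′ on the gene's own strand. Capitals mark CCAAT on either strand, the core of the NF-Y site that accompanies sterol elements in many of these promoters, and TCACNCCAC on either strand, a form of the sterol regulatory element.
Ggps1 promoter, chr13:14063439-14063738, minus strand: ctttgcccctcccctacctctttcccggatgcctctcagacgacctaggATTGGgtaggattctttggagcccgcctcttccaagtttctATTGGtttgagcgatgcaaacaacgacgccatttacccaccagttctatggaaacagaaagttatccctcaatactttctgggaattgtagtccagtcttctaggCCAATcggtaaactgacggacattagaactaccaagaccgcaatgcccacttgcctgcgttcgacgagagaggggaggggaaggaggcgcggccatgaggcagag
Hmgcs1 promoter, chr13:119690101-119690400, plus strand: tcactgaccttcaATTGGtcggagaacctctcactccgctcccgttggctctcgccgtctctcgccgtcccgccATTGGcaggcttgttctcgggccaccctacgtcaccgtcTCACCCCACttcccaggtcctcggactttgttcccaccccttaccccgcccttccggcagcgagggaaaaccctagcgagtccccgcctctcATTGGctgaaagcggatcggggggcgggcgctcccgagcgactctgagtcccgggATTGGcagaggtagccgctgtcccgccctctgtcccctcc
Hsd17b7 promoter, chr1:169969156-169969455, minus strand: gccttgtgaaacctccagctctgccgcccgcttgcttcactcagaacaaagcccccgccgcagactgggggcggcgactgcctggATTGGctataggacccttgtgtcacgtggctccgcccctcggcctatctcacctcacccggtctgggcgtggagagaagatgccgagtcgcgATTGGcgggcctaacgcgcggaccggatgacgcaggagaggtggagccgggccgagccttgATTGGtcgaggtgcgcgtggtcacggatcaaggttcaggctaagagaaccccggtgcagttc
Insig1 promoter, chr5:28071162-28071461, plus strand: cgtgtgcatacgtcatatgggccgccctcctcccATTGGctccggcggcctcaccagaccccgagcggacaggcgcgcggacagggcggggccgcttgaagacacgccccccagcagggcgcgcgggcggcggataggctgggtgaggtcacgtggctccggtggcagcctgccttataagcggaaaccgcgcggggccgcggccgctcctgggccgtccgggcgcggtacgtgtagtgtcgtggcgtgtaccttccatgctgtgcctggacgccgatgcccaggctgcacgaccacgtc

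Of the 20 members that are enzymes of synthesis, 17 had a promoter in the sequence table. Fdps, Fdft1 and Sqle had none there, and Sqle was also called lower in KO, as given below. Of the 17, 16 (94.1%) held at least 1 CCAAT, all except Acat2. The share was 42.7% among the 8874 genes of the deposited table that had a promoter, and 6 of 10 among the members that sense, carry or export cholesterol. TCACNCCAC was found in 1 of the 27 member promoters, that of Hmgcs1 at position -137 from that start, against 1.41% of the genes of the table. These 2 motifs do not overlap in that window. The matches describe letters in short windows, and nothing about binding can be read from their presence or absence.

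Most synthesis enzymes also shared their highest library within each genotype. KO replicate 1 held the highest KO level and WT replicate 3 the highest WT level for the same 14 of the 20 enzymes (70%). Over all genes this pair of libraries was highest together for 2.85%. At the low end, KO replicate 3 was lowest among KO and WT replicate 5 lowest among WT for 8 of the 20 (40%), against 4.06% of all genes. These libraries were singled out after the values were seen, and the counts are given as a description with no test.

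Averaged over the 20 enzymes and set against the WT mean, the log2 level was 0.31 in KO replicate 1 and -0.37 in KO replicate 3, with the other 5 KO libraries between -0.25 and -0.06. In WT it was 0.32 in replicate 3 and -0.39 in replicate 5, with the other 3 between -0.01 and 0.04. The KO and WT ranges thus overlapped almost entirely. The KO libraries other than replicate 1 nonetheless all lay below the WT libraries other than replicate 5, a split made after the values were seen. The spread between mice was wide for these enzymes, with a median SD of 0.28 log2 in KO and 0.36 in WT, against 0.22 in KO and 0.19 in WT over all genes. The other 14 members had a median SD of 0.18 in both KO and WT. KO replicate 3 was the only day 8 gland and WT replicate 3 the only day 11 gland of its group, while KO replicate 1 and WT replicate 5 were both taken on day 10. The part of lactation day in this order was not tested.

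**Figure D1:**
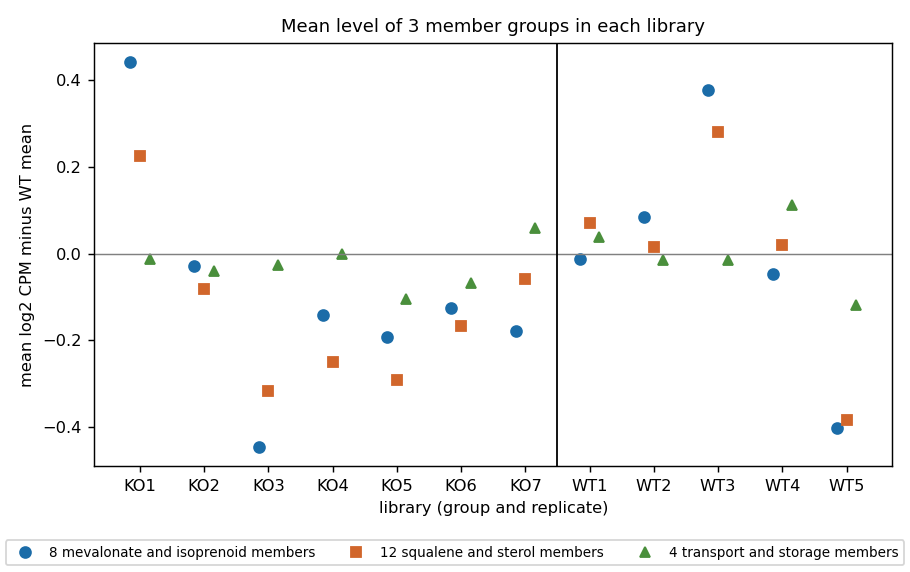
Mean log2 CPM minus the WT mean (vertical axis) in each of the 7 KO and 5 WT libraries (horizontal axis), for the 8 mevalonate and isoprenoid members (circles), the 12 squalene and sterol members (squares) and the 4 transport and storage members (triangles). The circles and squares are highest in KO1 and WT3 and lowest in KO3 and WT5, while the triangles stay between -0.12 and 0.11.

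The exceptions to this order were specific enzymes. Ggps1, Tm7sf2, Lbr, Hsd17b7 and Ebp were the 5 synthesis members for which KO replicate 1 was not the highest KO library. Mvk followed it in KO but was highest in WT replicate 2. Among the other 14 members, Insig1 and Srebf2, both of the sterol-sensing step, and Stard4, a cytosolic sterol carrier, peaked in the same pair of libraries.

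**Figure D2:**
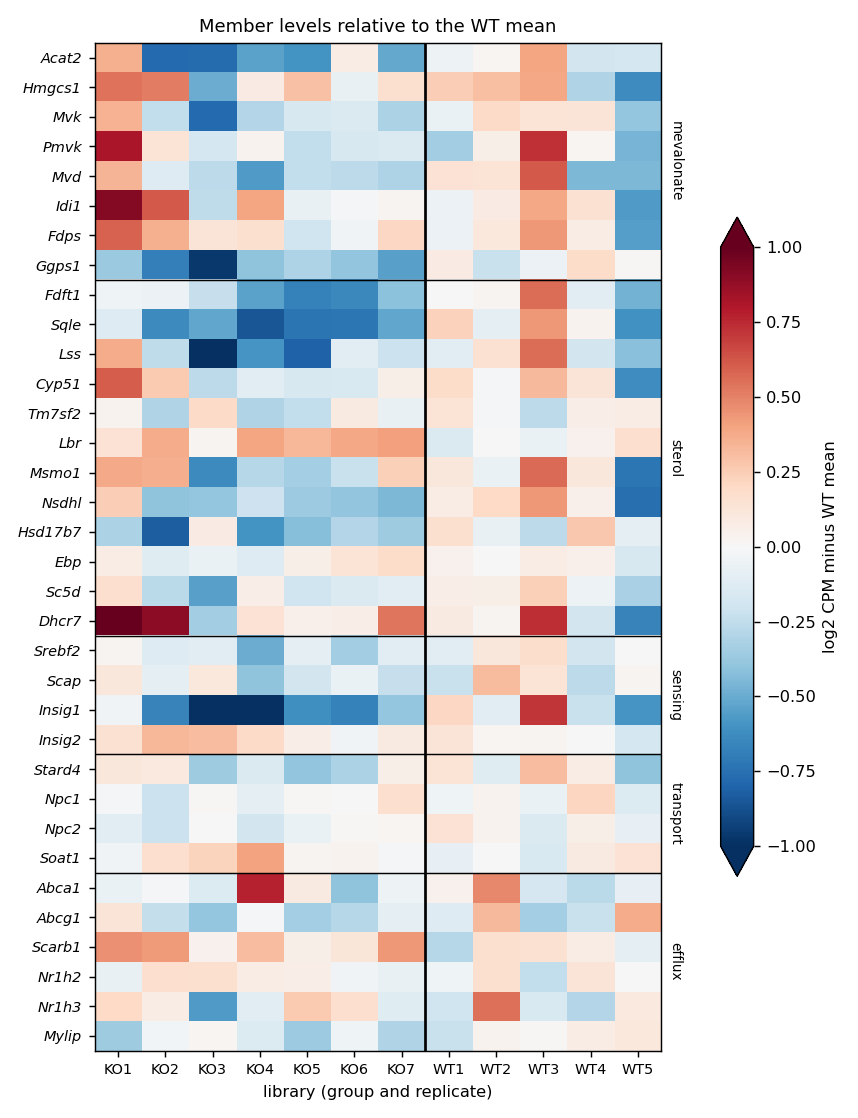
Log2 CPM minus the WT mean (colour, capped at 1 in each direction) for the 34 members (rows, in 5 role groups) in the 7 KO and 5 WT libraries (columns). KO1 and WT3 are red and WT5 is blue for most mevalonate and sterol members. Ggps1, Sqle and Insig1 lie below the WT mean in every KO library, Insig1 by little in KO1.

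Against this spread, few members differed between genotypes. By limma, with p-values adjusted over all 11834 genes, 0 of the 34 members rose in KO and 2 fell, Ggps1 and Sqle. That is 5.88% of the members, against 9.36% of all genes called in either direction, 4.52% lower and 4.84% higher. Of the members 1 was lower in every KO library than in any WT library and 0 were higher in this way, against 2.74% and 2.69% of all genes. With no adjustment, 2 members were higher and 5 lower at a p under 0.05, where 12.2% of all genes were higher and 14.4% lower. The median log2 change of the members was -0.08 and that of all genes -0.03. The share of members called lower was thus near the background share. Without WT replicate 5 the count of members lower was 3, without KO replicate 3 it was 3 with 1 higher, and it was 1 without any 1 of KO replicates 2, 4, 5 and 7 and WT replicates 1 to 4.

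**Figure D3:**
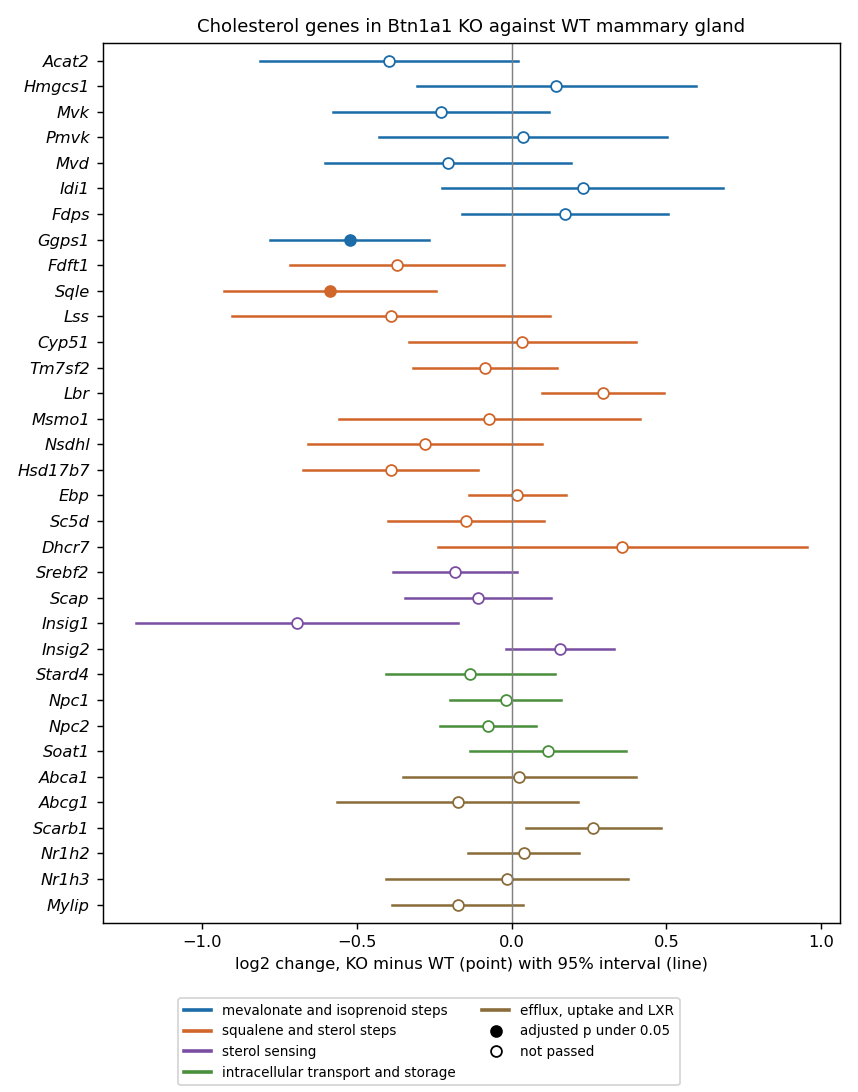
Log2 change of KO minus WT (horizontal axis; points) with its 95% interval from the moderated fit (lines) for the 34 members, coloured by role group. The filled points are Ggps1 at -0.52 and Sqle at -0.59, the 2 members that passed at an adjusted p under 0.05.

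Of the 8 members of the mevalonate and isoprenoid steps, 1 fell, 0 rose and 7 did not pass. The one that fell was Ggps1, the synthase that joins isoprenoid units into geranylgeranyl diphosphate, used to anchor small GTPases to membranes and lying on a branch away from sterols. Ggps1 held 1.86 log2 CPM at the lowest, 2.43 at the median and 2.52 at the highest of the 7 KO libraries, against 2.91, 2.60, 2.76, 3.01 and 2.84 in WT replicates 1 to 5. Every KO library lay below every WT library, the separation counted above. The log2 change was -0.52 (SE 0.12), which is 1.44-fold lower, with an adjusted p of 0.0162. The exact two-sided permutation p, unadjusted and drawn from the same separation, was 0.00126, the smallest that this design allows. The call held when any 1 library was left out, with adjusted p between 0.0131 and 0.0467. It ended with the macrophage marker score as a covariate (log2 change -0.48, adjusted p = 0.631), a fit in which 1 of the 11834 genes was called, and held with the muscle score (log2 change -0.55, adjusted p = 0.0497).

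Ggps1 lies at chr13:14049790-14063566 (GRCm38), on the chromosome of Btn1a1 and 9.39 Mb from it. Of the 48 table genes placed within 10 Mb of Btn1a1, Ggps1 was the 1 called lower (2.08%), against 4.56% of genes elsewhere. The window takes in Ggps1 near its edge. As the only such call is Ggps1 itself, these shares are a description with no test. Idi1, 14.6 Mb from Btn1a1, Mylip, 21.9 Mb away, and Hmgcs1, 96.2 Mb away, are the other members on that chromosome, and none of these 3 passed. The part of this position in the lower Ggps1 level was not tested.

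The members that lead to farnesyl diphosphate showed no common direction. Acat2, a thiolase that joins acetyl-CoA units, had 4.46, 4.70 and 5.59 log2 CPM at the lowest, median and highest KO library, against 5.19, 5.25, 5.63, 5.06 and 5.06 in WT replicates 1 to 5. Of the KO libraries 5 lay below all WT libraries, but KO replicates 1 and 6 did not, and the log2 change was -0.40 (SE 0.19, adjusted p = 0.211). The mouse genome carries a close copy of this gene, Acat3, next to it, and reads of the pair can be split uncertainly. Mvk, the kinase of mevalonate, ranged from 1.26 to 2.38 log2 CPM in KO with a median of 1.78, against 1.96, 2.22, 2.16, 2.16 and 1.64 in WT replicates 1 to 5. The groups overlapped, with a log2 change of -0.23 (SE 0.16, adjusted p = 0.400).

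Hmgcs1, the synthase of HMG-CoA, averaged 4.72 ± 0.36 log2 CPM in KO (SD, n = 7) and 4.58 ± 0.44 in WT (SD, n = 5). Its log2 change of 0.14 had a 95% interval from -0.30 to 0.59, so a change of either sign and modest size is within what the data allow. Intervals of the remaining members also spanned 0. Pmvk, the next kinase of the pathway, changed by 0.04 (interval -0.43 to 0.50), and Mvd, the decarboxylase that yields isopentenyl diphosphate, by -0.20 (-0.60 to 0.19). For Idi1, the isomerase of that product, the change was 0.23 (-0.22 to 0.68), and for Fdps, the synthase of farnesyl diphosphate, 0.17 (-0.16 to 0.50).

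Of the 12 members of the squalene and sterol steps, 1 fell, 0 rose and 11 did not pass. Sqle, the epoxidase of squalene and a rate-controlling oxygen-dependent step, held 5.34, 5.56 and 6.07 log2 CPM at the lowest, median and highest KO library. In WT replicates 1 to 5 it held 6.42, 6.10, 6.63, 6.23 and 5.59. All KO libraries lay below WT replicates 1 to 4, while WT replicate 5 fell among the KO values. The log2 change was -0.59 (SE 0.16), or 1.5-fold lower, with an adjusted p of 0.0345 and an unadjusted exact two-sided permutation p of 0.0139. The call ended without any 1 of KO replicates 2, 4, 5 and 7 and WT replicates 1 to 4, with adjusted p up to 0.0940, while without WT replicate 5 the adjusted p was 0.00919. It also ended with day 10 libraries only (log2 change -0.43, adjusted p = 0.243), with a muscle score in the fit (log2 change -0.55, adjusted p = 0.129), with the macrophage score (log2 change -0.57, adjusted p = 0.648) and in limma without its trend and robust options (adjusted p = 0.0539).

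Hsd17b7, a ketosteroid reductase of the demethylation steps, did not pass. It had 4.63, 5.09 and 5.53 log2 CPM at the lowest, median and highest KO library, against 5.61, 5.38, 5.19, 5.72 and 5.35 in WT replicates 1 to 5. KO replicate 3 alone reached the WT values, and the other 6 KO libraries lay below all of them. The log2 change was -0.39 (SE 0.13, adjusted p = 0.0784), and the test was passed without KO replicate 3 (adjusted p = 0.0228) and with lactation day as a covariate (adjusted p = 0.0292).

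Lbr, a nuclear envelope protein that also reduces a sterol double bond, differed in the other direction. It had 2.64, 2.99 and 3.03 log2 CPM at the lowest, median and highest KO library, against 2.47, 2.61, 2.55, 2.66 and 2.78 in WT replicates 1 to 5. Of the KO libraries 5 lay above all WT libraries, and KO replicates 1 and 3 did not. The log2 change was 0.30 (SE 0.09, adjusted p = 0.0579). It passed without KO replicate 3 (adjusted p = 0.0262), with lactation day as a covariate (0.041), after cyclic loess (0.0436) and with array weights (0.0310). Tm7sf2, which performs the same reduction in the endoplasmic reticulum, had a log2 change of -0.09 (95% interval -0.32 to 0.15).

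The other members of these steps did not pass either. Fdft1, which makes squalene, was at a log2 change of -0.37 (SE 0.16, with an adjusted p of 0.159), and its exons overlap those of Ctsb on the opposite strand by 774 bases, so reads may be shared if strand was not used in counting. Lss, the cyclase that makes lanosterol, had -0.39 (95% interval -0.90 to 0.12) and Nsdhl, a sterol dehydrogenase, -0.28 (-0.66 to 0.10). Nsdhl was called lower without WT replicate 5 (log2 change -0.47, adjusted p = 0.0486). Dhcr7, the last reductase of the pathway, had the highest log2 change of the members, 0.36, with an interval from -0.24 to 0.95. Its level ran from 2.80 to 4.30 log2 CPM across KO and from 2.48 to 3.89 across WT, the widest WT spread among the 34 members (SD 0.51).

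The last 4 sterol enzymes lay closer to 0. Ebp, a sterol isomerase, averaged 4.65 ± 0.13 log2 CPM in KO (SD, n = 7) and 4.63 ± 0.09 in WT (SD, n = 5), a log2 change of 0.02 with an interval from -0.14 to 0.18. Sc5d, a sterol desaturase, had -0.15 (-0.40 to 0.10), Cyp51, the lanosterol demethylase, 0.03 (-0.33 to 0.40) and Msmo1, the methylsterol oxidase, -0.07 (-0.56 to 0.41).

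**Figure D4:**
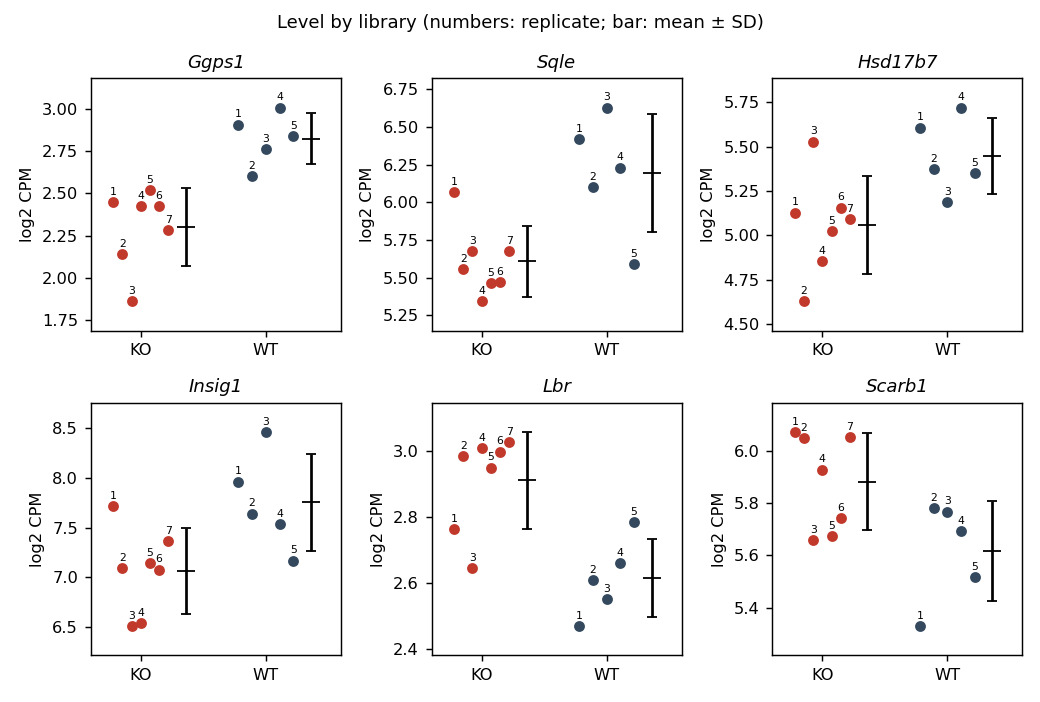
Log2 CPM (vertical axis) of 6 members in each KO and WT library (points, numbered by replicate) with the mean and SD of each group (bars). Ggps1 alone separates the groups in full, Sqle overlaps through WT replicate 5, Hsd17b7 and Lbr overlap through KO replicates 1 or 3, Insig1 overlaps through KO replicates 1 and 7, and Scarb1 through 3 KO libraries.

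Of the 4 members that sense sterol, none passed. Insig1, the retention protein and itself an Srebf2 target, had 6.51, 7.09 and 7.72 log2 CPM at the lowest, median and highest KO library. WT replicates 1 to 5 had 7.96, 7.64, 8.47, 7.53 and 7.17. Of the KO libraries 5 lay below all WT libraries, and KO replicates 1 and 7 did not. Its log2 change of -0.69 (SE 0.24, 95% interval -1.21 to -0.17, adjusted p = 0.0893) was the lowest of the 34 members. With day 10 libraries only it was -0.28 (adjusted p = 0.445).

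Insig2, the form that is less dependent on Srebf2, had 3.43, 3.62 and 3.80 log2 CPM at the lowest, median and highest KO library, against 3.59, 3.49, 3.50, 3.47 and 3.29 in WT replicates 1 to 5. Its log2 change was 0.16 (SE 0.08, adjusted p = 0.235), with 4 KO libraries above all WT libraries. Srebf2 itself had 3.92, 4.30 and 4.44 at those KO libraries, against 4.32, 4.53, 4.60, 4.24 and 4.41 in WT. The groups overlapped, and the log2 change was -0.18 (SE 0.09, adjusted p = 0.230). Scap, its escort, had -0.11 (95% interval -0.35 to 0.13).

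Members that carry or store cholesterol in the cell did not pass, 0 of 4 in either direction. Npc2, the lysosomal protein that binds cholesterol, had 7.19, 7.34 and 7.42 log2 CPM at the lowest, median and highest KO library, against 7.55, 7.44, 7.26, 7.47 and 7.32 in WT replicates 1 to 5. Its log2 change was -0.08 (95% interval -0.23 to 0.08, adjusted p = 0.536). Npc1, its membrane partner, had -0.02 (-0.20 to 0.16). These were among the narrowest intervals of the 34 members.

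Stard4 had 3.60, 3.85 and 4.10 log2 CPM at the lowest, median and highest KO library, against 4.13, 3.87, 4.30, 4.07 and 3.59 in WT replicates 1 to 5, a log2 change of -0.13 (SE 0.13, adjusted p = 0.538). Soat1, which esterifies cholesterol for storage, had 1.31, 1.38 and 1.74 in KO, against 1.26, 1.34, 1.19, 1.43 and 1.49 in WT, a change of 0.12 (SE 0.12, adjusted p = 0.564). Both overlapped between the groups.

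Of the 6 members of efflux, uptake and LXR control, none passed. Scarb1, the HDL receptor that takes up cholesteryl ester, had 5.66, 5.93 and 6.07 log2 CPM at the lowest, median and highest KO library. It had 5.33, 5.78, 5.77, 5.69 and 5.52 in WT replicates 1 to 5, and 4 of the 7 KO libraries lay above all of these. The log2 change was 0.26 (SE 0.10, adjusted p = 0.114), and it did not pass in any of the alternatives tried.

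Mylip, the LXR-induced ubiquitin ligase, had 2.39, 2.62 and 2.78 log2 CPM at the lowest, median and highest KO library, against 2.54, 2.79, 2.77, 2.84 and 2.86 in WT replicates 1 to 5 (log2 change -0.17, SE 0.10, adjusted p = 0.282). Abcg1, a transporter that loads cholesterol onto HDL and a classic LXR target, had 0.06, 0.21 and 0.57 in KO, against 0.32, 0.77, 0.10, 0.22 and 0.82 in WT. Its log2 change was -0.17 (SE 0.18, adjusted p = 0.579). The groups overlapped for both genes.

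Abca1, the LXR-driven transporter that loads apolipoprotein A-I, had a log2 change of 0.03 (95% interval -0.35 to 0.40), and KO replicate 4 stood above the other KO libraries at 3.32 log2 CPM. The LXR receptors themselves changed by 0.04 for Nr1h2 (-0.14 to 0.22) and by -0.01 for Nr1h3 (-0.40 to 0.38).

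Outside the 34 members, 53 other cholesterol genes were listed and 43 were measured. Of these 0 rose, 6 fell (13.95%) and 37 did not pass, against 4.52% of all genes lower. Cyp39a1, an oxysterol hydroxylase of bile acid synthesis in liver, fell by 0.74 (log2 change, SE 0.13, adjusted p = 0.00522). Aacs, which activates acetoacetate for lipid synthesis, fell by 0.93 (SE 0.20, adjusted p = 0.0162), and Vldlr, a lipoprotein receptor, fell by 0.51 (SE 0.13, adjusted p = 0.0250). Osbpl2, a sterol transfer protein, fell by 0.34 (SE 0.09, adjusted p = 0.0256). Mbtps2, the protease that makes the last cut in releasing Srebf proteins, fell by 0.38 (SE 0.10, adjusted p = 0.0268). Rnf145, a ubiquitin ligase of sterol sensing, fell by 0.43 (SE 0.11, adjusted p = 0.0286). For Cyp39a1, Aacs and Mbtps2, 3 of the 43, every KO library was below every WT library, against 2.74% of all genes. In the other direction 0 of the 43 separated in this way, against 2.69% of all genes. The count of 6 was 2 when either WT replicate 1 or 3 was left out, 3 when it was WT replicate 2, 4 when it was WT replicate 5, and 1 with day 10 libraries only, where Cyp39a1 was the one that passed.

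Calls among markers of other cell types came mainly from the macrophage and the basal and myoepithelial lists. Over all genes 4.84% were called higher and 4.52% lower. Of 10 macrophage markers 4 rose and 0 fell, and their sum ran from 109 to 216 CPM in KO and from 98.5 to 127 CPM in WT. Of 7 basal and myoepithelial markers 4 rose and 0 fell (477 to 728 CPM in KO, 440 to 575 CPM in WT). Of 9 adipocyte markers 1 rose and 0 fell (359 to 644 CPM in KO, 365 to 589 CPM in WT), and of 6 endothelial markers 1 fell and 0 rose (39.2 to 71.1 CPM in KO, 48.9 to 78.3 CPM in WT). None of 11 skeletal muscle markers passed, and their sum ran from 107 to 1748 CPM in KO and from 72.1 to 506 CPM in WT. No marker of these lists was at 0, and the lowest was Emcn at 1.31 log2 CPM over all libraries. With the muscle score in the fit the log2 change was -0.55 for Ggps1 and -0.55 for Sqle, and with the macrophage score it was -0.48 for Ggps1 and -0.57 for Sqle, against -0.52 for Ggps1 and -0.59 for Sqle without a score. Both scores were higher in KO on average, by 0.47 log2 for macrophage and 1.11 for muscle. Score and genotype thus go together in part, and these fits cannot tell them fully apart. The part of any cell type in these results was not tested.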

How the data were processed

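PolyA RNA of 12 mammary glands was sequenced, 7 KO and 5 WT, grouped by the labels. Per the submitters' processing notes, STAR 2.5.2b, RSEM 1.3.0, Trimmomatic 0.33, bcl2fastq 2.17 and limma 3.34.5 were run, and the builds mm10 and hg19 are named, all without a role. The authors deposited log2 CPM values per library, their log2 fold change, a moderated t score, a signed fold score and p-values with adjusted p-values. The deposited log2 values were, judged from the values, quantile-normalized: 67.1% of ranks differed by less than 0.01 log2 across libraries. Neither the gene filter nor the strand setting of the counting is given in the sources used here. Precision rests on the spread between mice.

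Genotype was tested on these values in limma 3.58.1 (R 4.3.3; eBayes with trend and robust). Two-sided p-values, adjusted over all 11834 genes after Benjamini and Hochberg, were called under 0.05. Called members were also tested by exact permutation of the genotype labels (792 arrangements). These p-values are not adjusted and use the same values, so they give no separate support. On simulated libraries 82 of 100 genes changed by 1 log2 unit were recovered, and 41 of 100 changed by 0.5, with 6 false calls among 129. Each simulated gene had independent noise with its own SD, and no further genes were changed. Levels shared between genes, as among the synthesis enzymes, were left out, so these rates need not hold for the members. Alternatives were a replicate block, lactation day as a covariate, day 10 libraries only, median centring, cyclic loess, a mean of at least 1 log2 CPM, eBayes without those options, array weights, leaving out each library, an adjusted p under 0.01, muscle and macrophage scores as covariates (the mean log2 CPM of the list) and the authors' statistics. Positions and promoters came from RefSeq (GRCm38.p6), which matched 94.8% of table genes, and exon overlaps from GENCODE M21. Python 3.11.15 and matplotlib 3.10.9 drew the figures.

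The members, lists, role groups and tests were chosen with earlier results of these data known. Every member is counted. KO lowest, median and highest values and each WT value are given for called members and for the 3 of smallest p in each of 5 role groups, and the other pathway genes named are those called. The rest were named after their values were seen.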

Additional observations from a re-analysis of the deposited data

Results flagged for a closer look

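Of 68 groups of values examined, 34 members in KO and in WT, 3 had 1 library standing far from the others by Dixon's ratio at the 95% level, and chance gives such a result in about 1 in 20 groups. Pmvk had 4.64 log2 CPM in KO replicate 1, with the next KO library at 3.97. Nsdhl had 3.91 log2 CPM in KO replicate 1, with the next at 3.45. Both sit in the library that was highest in KO for 15 of the 20 synthesis enzymes. Abca1 had 3.32 log2 CPM in KO replicate 4, with the next at 2.63. The adipocyte markers, at 644 CPM, and the muscle markers, at 1748 CPM, were also highest in that library. The part of these markers in the Abca1 level was not tested.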

How the results depend on the processing

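No member that passed changed direction under the alternatives tried. The count of members lower, 2 as reported, was 1 with day 10 libraries only, 1 with the muscle score, 1 without the trend and robust options, 0 with the macrophage score and 0 at an adjusted p under 0.01, and ran from 1 to 3 when 1 library was left out. The count of members higher, 0 as reported, was 1 with lactation day as a covariate, 1 after cyclic loess and 1 with array weights, in each case Lbr, and ran from 0 to 1 when 1 library was left out. Other pathway genes lower, 6 as reported, numbered 1 with day 10 libraries only, 1 with the muscle score, 1 at an adjusted p under 0.01 and 0 with the macrophage score, and 2 to 7 when 1 library was left out. Those higher, 0 as reported (4 at an unadjusted p under 0.05, by limma), numbered 1 with the day covariate, 1 with array weights and 2 with the replicate block, Apoe and Cav1, and 0 to 1 when 1 library was left out. All genes called, 1108 as reported, numbered 268 with day 10 libraries only, 249 at an adjusted p under 0.01, 292 with the muscle score and 1 with the macrophage score, and 559 to 1327 when 1 library was left out (559, 644, 725 and 696 for WT replicates 1, 2, 3 and 5, and 724 for KO replicate 1). Day 10 fits have 5 KO and 3 WT libraries. The cause of the other shifts was not tested. The median log2 change of the 20 synthesis enzymes was -0.12, but 0.06 with day 10 libraries only and -0.03 with the macrophage score, and ran from -0.24 (WT replicate 5) to -0.07 (WT replicate 3) when 1 library was left out. Replicate numbers are not a pairing in the labels: same-numbered libraries had correlations of their deviations between -0.17 and 0.21. With numbers as a replicate block in 10 libraries, 1090 genes were called, 2 members were lower (Ggps1, adjusted p = 0.0254, and Sqle, adjusted p = 0.0253) and 6 other pathway genes were lower, with Srebf1 in place of Mbtps2 (adjusted p = 0.0552). Some members that did not pass changed sign, as follows (log2 change). With day 10 libraries only the sign turned for Mvk (0.0050), Mvd (0.13), Lss (0.033), Msmo1 (0.25), Scap (0.059), Soat1 (-0.014), Nr1h2 (-0.021) and Nr1h3 (0.25). With the muscle score the sign turned for Pmvk (-0.055), Abca1 (-0.090) and Nr1h3 (0.046). With the macrophage score the sign turned for Pmvk (-0.11), Idi1 (-0.033), Cyp51 (-0.058), Msmo1 (0.0022), Insig2 (-0.0025), Npc1 (0.012), Npc2 (0.0071), Soat1 (-0.077), Abca1 (-0.25), Nr1h2 (-0.12) and Nr1h3 (0.19). With the replicate block the sign turned for Ebp (-0.037). After cyclic loess the sign turned for Npc1 (0.00020) and Nr1h3 (0.036). With array weights the sign turned for Npc1 (0.0090), Abca1 (-0.053) and Nr1h3 (0.0088). In the authors' deposited table the sign turned for Abca1 (-0.0039). When 1 library was left out, the values ran on both sides of 0 for Hmgcs1 (-0.012 to 0.25), Pmvk (-0.092 to 0.22), Cyp51 (-0.12 to 0.11), Msmo1 (-0.25 to 0.070), Ebp (-0.021 to 0.043), Npc1 (-0.054 to 0.035), Abca1 (-0.099 to 0.15), Nr1h2 (-0.022 to 0.079) and Nr1h3 (-0.086 to 0.12).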
